A study of Mus musculus with 117 samples.

Results

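The flow-through libraries of mouse spinal cord 5 days after injury, and their uninjured controls, are 8 of the 117 libraries of the series. They were chosen by sample title, with 4 libraries at 5 days and 4 from uninjured cord. All mice were young adult C57BL/6 animals of the genotype Aldh1l1-CreERT2 -RiboTag, the uninjured ones included. In these mice tamoxifen switches on Cre in cells that use the Aldh1l1 promoter, mainly mature astrocytes, and Cre then adds a haemagglutinin tag to a ribosomal protein of those cells. Injured mice received a complete crush of the thoracic cord, and tissue around the lesion centre was homogenised. Tagged ribosomes were pulled down with an antibody to give an astrocyte library, and the RNA that stayed in solution was the flow-through. The libraries around them in the series that are used here are the flow-through at 2 days (5 libraries) and at 14 days (4), a set of 4 flow-through libraries from males at 5 days, and the 8 astrocyte libraries of uninjured and 5-day cord. Flow-through libraries at 28, 42 and 70 days entered the fit only to estimate the spread between libraries.

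The flow-through holds RNA of neurons, oligodendrocytes, microglia, blood vessels, meninges and any blood cells that have entered, together with astrocyte RNA that escaped the pulldown. After a crush, neurons and myelinating cells die in the lesion, microglia and incoming monocytes clear debris and red cells, and stromal cells, vessels and glial progenitors divide. These events overlap in the first week, in the days before a scar with a fibrotic core and an astrocyte border has formed. In such bulk tissue, fewer cells of a type and less RNA per cell cannot be told apart.

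Each 5-day library held 93371943 to 107121661 counts (median 97726710) and each uninjured one 99521160 to 115137979, and no pair of libraries was identical. The 10 most abundant genes took 9.45 to 10.4% of counts in uninjured and 10.2 to 11.9% in 5-day libraries, and the 2 listed genes of the mitochondrial genome 0.603 to 0.788% and 0.33 to 0.41%. 5-day replicate 4 was labelled male, but held 4702 counts of Xist, a transcript of the inactive X chromosome, and 2 counts of the Y-linked gene Ddx3y, in the range of the libraries labelled female. The 5 libraries at 2 days were labelled female, but held 0 to 30 counts of Xist and 1975 to 5190 of Ddx3y. Whether these 5 files hold the libraries their labels name was not tested, and any difference between library sets cannot be told apart from the time between 2 and 5 days. Going by these counts, sex cannot be told apart from that time either. Male and female libraries at 5 days differed in 5 called genes of 17961, but the effect of sex at 2 days was not tested. The 2-day libraries entered the estimate of spread in the main fit, and the counts this moves most are also given without them. Levels are CPM (counts-per-million of the library, with library sizes scaled for composition), and a call is a false discovery rate (FDR) under 0.01 over all genes tested in edgeR's quasi-likelihood test.

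In uninjured cord Aldh1l1 stood at 15 ± 1.5 CPM in the flow-through against 541 CPM in astrocyte libraries, and the neuronal gene Snap25 at 3220 ± 183.7 against 199 CPM. Each library kind was thus rich in the RNA its label names.

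The first question was what injury did to RNA outside the tagged astrocytes within 5 days. Of 19207 genes tested, 5326 were higher at 5 days (27.7%) and 4192 lower (21.8%), with a median log2 change of 0.05. Without the 2-day libraries in the fit, 5978 were higher and 5637 lower. At least 2-fold changes were called for 3578 genes upward and 2682 downward (3734 and 3346 without those libraries), and at least 8-fold changes for 952 upward and 259 downward (951 and 324). Increases thus outnumbered decreases among the changes of at least 8-fold. Of the 41 gene lists, 18 had the same calls without those libraries, 23 had more and 0 had fewer, and no list median moved by more than 0.04 on the log2 scale. Scaling by DESeq2-type size factors or by total counts lowered the median of all genes to -0.09 and -0.1, and 4671 genes were then higher with 4868 lower, or 4610 with 4837. The split between higher and lower calls depended on the scaling, while no gene named here was called in the opposite direction under any alternative.

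The 12 genes of largest increase included several known from lipid-laden, debris-clearing phagocytes and 1 known from wounded axons. Apoc2, a lipoprotein component that activates lipoprotein lipase (gene ID 11813, chr7:19671579-19677941), stood at 0.126, 0.235, 0.267 and 0.0912 CPM in the uninjured libraries and at 85.7, 109, 126 and 84.6 CPM at 5 days. The groups lay far apart, with mean levels 556-fold apart, and the log2 change was 9.12 ± 0.3 (standard error; edgeR adjusted p = 1.1e-18). Lgals3, the galectin-3 gene of activated phagocytes, went from 4.06 to 7.08 CPM in uninjured libraries to 793 to 986 CPM (log2 change 7.34 ± 0.31). Adam8, a leukocyte surface protease, went from 1.34 to 2.17 CPM to 221 to 312 CPM (7.28 ± 0.35). Clec4d, a myeloid C-type lectin receptor, rose by a log2 change of 8.05 and Lilr4b, an inhibitory myeloid receptor, by 8.44. Lilr4b has a closely similar neighbouring gene, so its level is uncertain where reads could be split between them. Sprr1a, Cd5l, Arg1, Mmp12, Hmox1 and Gpnmb were also among the 12 and belong to lists described below.

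The 12 genes of largest decrease were mostly neuronal. Scn1a (gene ID 20265, chr2:66270781-66440837), a voltage-gated sodium channel of fast-firing neurons, had 84.5, 113, 115 and 105 CPM in uninjured and 7.43, 3.36, 3.56 and 6.6 CPM in 5-day libraries. The means were 19.9-fold apart with no overlap, and the log2 change was -4.32 ± 0.43 (edgeR adjusted p = 1.3e-09). Gabbr2, a subunit of the GABA-B receptor, had 45.5, 83.9, 99.2 and 80 CPM in uninjured cord and 3 to 5.71 CPM at 5 days (log2 change -4.16 ± 0.47). Uninjured replicate 1 was the lowest of its group for Gabbr2, as it was for Syt2, Slc6a5, Ina and Atp2b3. Groups that do not overlap were a condition for these leading genes, and 12871 of 19207 tested genes had such groups. Htr2c, a serotonin receptor, Vstm2a, Esrrg and Ankrd34b also fell by 3.75 to 3.93 on the log2 scale. Myoc, the myocilin gene, a secreted protein, fell by 3.78 on that scale.

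**Figure D1:**
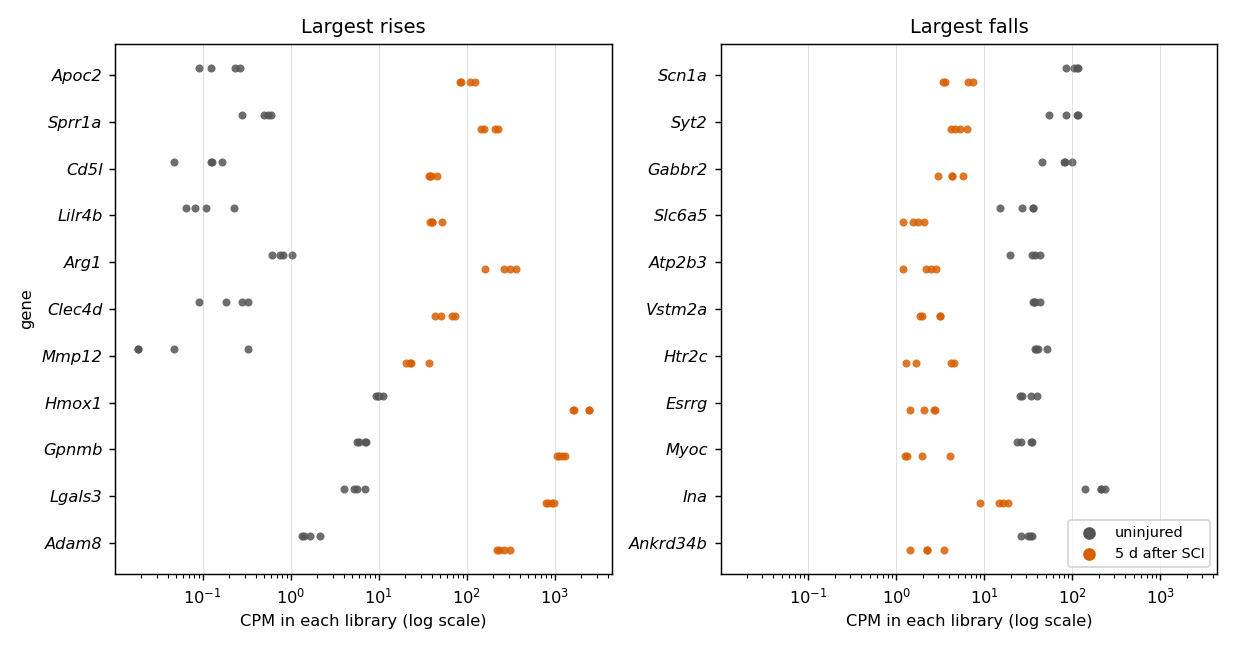
CPM of 11 of the 12 genes of largest increase and 11 of the 12 of largest decrease in each of the 4 uninjured and 4 5-day flow-through libraries, on a log axis; each point is 1 library. Non-overlapping groups were a condition for being plotted. Apoc2 rose by a log2 change of 9.12, and Scn1a had the largest fall plotted (-4.32).

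Genes of neurons in general fell together. Of 14 tested neuronal genes, 13 were lower and 0 higher, with a median log2 change of -2.3, against 0.05 over all genes. Snap25 (gene ID 20614, chr2:136713439-136782428), which encodes a membrane-fusion protein of synaptic terminals, had 3099, 3183, 3107 and 3489 CPM in uninjured and 362, 216, 234 and 343.6 CPM in injured cord (mean ± SD 3220 ± 183.7 and 289 ± 74.5, n = 4 each). Its mean was 11.1-fold lower at 5 days (log2 change -3.48 ± 0.37, edgeR adjusted p = 4.4e-09). The neurofilament genes Nefl and Nefm, which build the axonal cytoskeleton, fell by 3.25 and 2.43 on the log2 scale. Uchl1, a neuronal deubiquitinase, was the member that did not pass (-0.62), though it did without the 2-day libraries. The summed level of the list was 13734 to 15658 CPM in uninjured libraries and 3504 to 3986 CPM at 5 days.

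Each class of neuron showed the same direction. For motor neurons, 7 of 9 genes were lower and 0 higher (median -2.62). Chat, which makes acetylcholine, had 11.9, 18.8, 16.2 and 14.2 CPM in uninjured cord and 1.04, 0.643, 0.755 and 1.39 CPM at 5 days, with no overlap (-4 ± 0.38). For excitatory interneurons, 7 of 8 were lower (median -2.27). Slc17a6, the vesicular glutamate transporter of most spinal excitatory cells, had 103 to 121 CPM in uninjured and 11.3 to 18.9 CPM in injured libraries (-2.88 ± 0.38). For inhibitory interneurons, 7 of 9 were lower (median -2.39), among them Slc6a5, the glycine transporter (-4.12), and Slc32a1, which loads GABA and glycine into vesicles (-2.88). The other two members were higher and are neuropeptides. Gal (galanin) had 14.6, 11.7, 11.3 and 12.8 CPM in uninjured and 38.3, 31.9, 46.1 and 36.5 CPM in 5-day libraries (1.6 ± 0.3, edgeR adjusted p = 4.1e-05). Npy rose from 27.4 to 40.3 CPM to 50.9 to 62.5 CPM (0.76 ± 0.17).

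Synaptic and electrical genes followed the neuronal markers. In the list of vesicle release genes 17 of 18 were lower (median -2.16), led by Rims1, an active zone scaffold (-4.38), and Syt2, the calcium sensor of fast release (-4.17). The most abundant, Cplx1, had 1932 to 2258 CPM in uninjured and 306 to 407 CPM in injured libraries (-2.58 ± 0.28). Of 21 receptor genes 18 were lower and 0 higher (median -2.43). These included the glycine receptor subunit Glra1 (-3.45) and the excitatory subunits Grin1 (-2.43) and Gria2 (-1.95). Of 20 voltage-gated channel genes 19 were lower (median -2.09), and Scn4b, a sodium channel beta subunit, went from 374.1 to 428.8 CPM to 25.4 to 35.3 CPM (-3.69 ± 0.35). Changes were smaller in Hcn2 (-0.89), a pacemaker channel gene, and Cacna1a (-0.82), a presynaptic calcium channel gene.

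Against this fall, several genes of injured neurons rose. Sprr1a (gene ID 20753, chr3:92483954-92485881), a small proline-rich protein induced in axotomised neurons, went from 0.482 ± 0.143 to 186 ± 40 CPM, with no overlap (8.58 ± 0.28, edgeR adjusted p = 1e-18), and the level at 14 days was 195 ± 21.5 CPM. Atf3, a stress-induced transcription factor, had 1.26, 1.54, 1.61 and 0.848 CPM in uninjured and 61.3, 62.4, 59.4 and 52.3 CPM in 5-day libraries, and all of the latter were far above the former (5.48 ± 0.23). Smaller increases were called for Klf6 (1.27), Jun (1.26), Sox11 (1.23) and Gadd45a (1.16), which are also regulators of the injury response. Gap43, a growth cone protein, did not pass (236 to 290 against 271 to 302 CPM, overlapping, edgeR adjusted p = 0.5). In all 7 of 13 genes of axon injury and growth were higher and 1 lower (median 0.61). None of Jun, Klf6, Atf3 or Gadd45a is specific to neurons.

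Oligodendrocyte genes fell less than neuronal ones. Of 18, 10 were lower and 1 higher (median -0.56). Fa2h, which hydroxylates myelin lipids, had 370.9, 356.4, 383.4 and 352.0 CPM in uninjured and 179, 152, 142 and 160 CPM in 5-day libraries, with no overlap (-1.21 ± 0.13, edgeR adjusted p = 5.8e-09). Mbp, the myelin basic protein gene, overlapped between groups (16247 to 19860 against 14951 to 16566 CPM, -0.22 ± 0.17, edgeR adjusted p = 0.26). Aspa, which releases acetate for lipid synthesis, fell by 1.17 on the log2 scale and Mobp, another myelin protein gene, by 1.07.

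Genes of oligodendrocyte progenitor cells (OPCs) rose instead. Of 10, 6 were higher and 0 lower (median 0.8). Cspg4, which encodes the NG2 proteoglycan, had 18.4, 18.1, 18.5 and 17.5 CPM in uninjured and 139.1, 153.6, 172.6 and 140.6 CPM in 5-day libraries, so that its level was 8.35-fold higher (3.06 ± 0.17, edgeR adjusted p = 1.1e-14). Gpr17, a receptor of cells committed to the lineage, rose from 39 to 62.5 CPM to 163 to 213 CPM (1.92 ± 0.32). Bmp4 (1.71), Neu4 (1.34), Pdgfra (0.9) and Sox10 (0.7) were also higher, while Olig1 (0.32), Olig2 (0.41) and Enpp6 (-0.21) did not pass. Pericytes use Cspg4 too, and fibroblasts use Pdgfra.

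Of 13 astrocyte genes, 3 were higher and 4 lower (median -0.06), against 27.7% and 21.8% of all genes. Gfap, the intermediate filament of reactive astrocytes, had 1013, 1108, 1310 and 962 CPM in uninjured and 2437, 2619, 2300 and 3363 CPM in injured libraries (1.29 ± 0.26). Aldh1l1, whose promoter drives Cre in these mice, rose from 13.8 to 17.2 CPM to 36.2 to 42.7 CPM (1.4 ± 0.21). Sox9, a glial transcription factor, was also higher (1.25). Lower members were Aldoc (-1.25), a glycolytic enzyme, and Gjb6 (-1.11), a gap junction gene. Slc7a10 (-1.03) and Slc1a2 (-0.59), both amino acid transporters, were lower as well, but the call of each was lost without single libraries (Slc1a2 without 5-day replicate 1, 2 or 3 or uninjured replicate 3 or 4, Slc7a10 without any of these or uninjured replicate 1). Genes of motile cilia in ependyma, the lining of the central canal, were lower in 4 of 8 cases and higher in 1, with the lower ones including their master regulator Foxj1 (52.9 to 60.2 against 27.2 to 31.6 CPM, -0.92 ± 0.14).

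**Figure D2:**
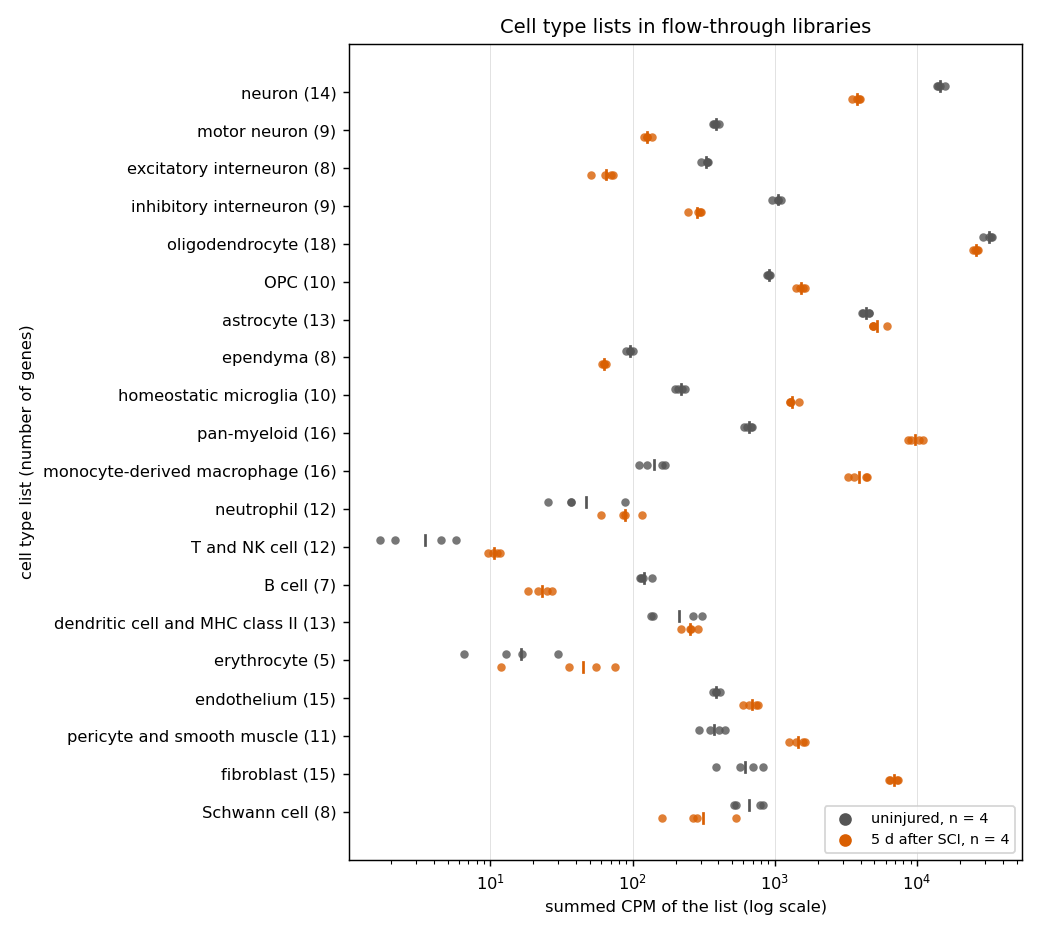
Summed CPM of each cell type list (log axis) in each of the 4 uninjured and 4 5-day flow-through libraries; each point is 1 library, the tick is the group mean and the number of genes stands in brackets. The neuron list lies at 13734 to 15658 CPM in uninjured and 3504 to 3986 CPM in 5-day libraries, and the pan-myeloid list at 603.8 to 690.6 and 8658 to 10951 CPM.

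Among the cell type lists the pan-myeloid one had the highest median. All 16 genes shared by microglia and macrophages were higher (median 3.72), and their summed level went from 603.8 to 690.6 CPM to 8658 to 10951 CPM. Cd68, a lysosomal glycoprotein of phagocytes, had 13.6, 14.4, 13.1 and 12.5 CPM in uninjured and 848, 1095, 794 and 720 CPM in 5-day libraries (gene ID 12514, chr11:69664213-69666170). Its mean was 64.5-fold higher (6.01 ± 0.35, edgeR adjusted p = 1.6e-14). C1qa, C1qb and C1qc encode the 3 chains of complement C1q and rose by 4.52, 3.93 and 4.26 on the log2 scale. Per kilobase of exon, C1qa stood at 2547 ± 379.4, C1qc at 1433 ± 147 and C1qb at 327 ± 52.1 CPM at 5 days (mean ± SD, n = 4), so the recorded level of C1qb was the lowest of the 3. Tyrobp and Fcer1g, signalling adaptors of phagocyte receptors, rose by 4.69 and 4.93. Ptprc, the leukocyte phosphatase CD45, rose by 2.3.

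Because all 16 genes moved together, their promoters were searched for AGGAAGT, a core that PU.1 and other ETS factors can bind. PU.1 is the myeloid regulator encoded by Spi1, itself higher here (3.98). RefSeq windows from 250 bases before to 50 after the start were at hand for 11 of the 16 genes, and 5 of their 13 windows (38.5%) held the motif on either strand, against 9.35% of all 32851 windows. The same windows held the CCAAT box in 23.1% against 37.4% of all windows. A match is a description of letters and shows no binding. The members C1qb and Ptprc are shown as the 100 bases that end just before the start site (RefSeq, GRCm38.p6), 5′ to 3′ on the gene's strand, with the motif in capitals. The C1qb stretch is chr4:136886201-136886300, minus strand, and the Ptprc stretch is chr1:138175306-138175405, minus strand.
C1qb: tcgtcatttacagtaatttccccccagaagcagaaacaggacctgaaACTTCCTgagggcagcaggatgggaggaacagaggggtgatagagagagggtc
Ptprc: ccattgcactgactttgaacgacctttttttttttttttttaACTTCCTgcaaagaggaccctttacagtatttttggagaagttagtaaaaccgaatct

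Genes held to mark resting microglia split. Of 10, 5 were higher and 1 lower (median 1.57). Fcrls, an Fc receptor-like gene, had 10, 8.16, 13.4 and 14.4 CPM in uninjured and 362.9, 430.7, 333.7 and 362.8 CPM in 5-day libraries (5.02 ± 0.2). Tmem119 (2.27) and Cx3cr1, the fractalkine receptor (2.3), were 4.84-fold and 4.91-fold higher. P2ry12, the ADP receptor that guides microglial processes, overlapped between groups at 8.34 to 12.2 and 8.5 to 14 CPM (0.23 ± 0.26, edgeR adjusted p = 0.45). Siglech (-0.32) did not pass either, and Sall1, a transcription factor of microglial identity, was lower (-0.61), a call lost without 5-day replicate 3. P2ry12 and Cx3cr1 belong to the same list, yet their group means differed by 1.18-fold and 4.91-fold.

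All 16 genes of monocyte-derived macrophages were higher (median 3.12). Arg1, the arginase of wound-healing macrophages (gene ID 11846, chr10:24915207-24927470), had 0.763, 1.03, 0.811 and 0.62 CPM in uninjured and 160.7, 366.4, 312.3 and 269.4 CPM in 5-day libraries (8.42 ± 0.41, edgeR adjusted p = 6.3e-16). Replicate 1 at 5 days was the lowest of its group and still far above uninjured cord, and the means lay 342-fold apart. Lyz2, the lysozyme of myeloid cells, went from 55.5 to 92.1 CPM to 2614 to 3466 CPM (5.36 ± 0.39). Cd5l, a secreted macrophage protein, rose by 8.44 and Ms4a7 by 5.17. Ccr2, the receptor that brings monocytes out of blood, was also called (1.36), although its groups overlapped (0.793 to 2.71 against 2.08 to 5.65 CPM).

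Lists of other blood cells had smaller shares of higher genes, to be set beside the 27.7% of all genes. Of 12 neutrophil genes 3 were higher (median 0.04), not above that share. S100a9, the most typical granulocyte transcript, overlapped between groups (5.59 to 26.5 against 4.57 to 26.4 CPM). The granule genes Camp, Ltf, Ngp, Elane and Mpo did not pass, while Csf3r, the receptor for granulocyte growth factor, which macrophages also use, rose by 2.64. Cxcr2 and Mmp8 were also higher under all 19 alternatives, by log2 changes of 3.49 to 4.31 and 2.7 to 3.3. Of 12 genes of T and natural killer cells 4 were higher (median 1.48) at a summed 9.54 to 11.6 CPM, with 1.66 to 5.68 CPM in uninjured cord. Cd4, which mouse myeloid cells can also express, rose from 0.274 to 0.35 CPM to 1.45 to 2.37 CPM (2.74 ± 0.3), whereas Cd8a (0.58) did not pass. Lck was higher as well, by 1.25 to 1.58 over the alternatives. So were Cd3e and Cd2, whose calls were lost under 4 and 9 of 19 alternatives. Leaving out single libraries changed the T and natural killer cell calls to between 2 and 6. The haemoglobin genes Hba-a1, Hba-a2 and Hbb-bs did not pass. Hba-a1 ranged from 0.848 to 8.76 CPM in uninjured and from 2.2 to 22.5 CPM in 5-day libraries, and it and Hba-a2 are near-identical copies whose reads can be split.

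Antigen presentation genes did not move as a block. Of 13 genes of dendritic cells and major histocompatibility complex (MHC) class II, 6 were higher and 1 lower (median 1.12). Cd74, the invariant chain of MHC class II, had 111, 132, 48.4 and 50.5 CPM in uninjured and 65.6, 75.1, 84.2 and 98.8 CPM in 5-day libraries. The uninjured replicates 1 and 2 were above all injured libraries and 3 and 4 below them, and H2-Ab1 showed the same order (40.8, 44.9, 15.2 and 16.8 against 30.2 to 39.5 CPM). The dendritic integrin Itgax rose from 0.383 to 0.627 CPM to 6.87 to 8.07 CPM (3.84 ± 0.26). Flt3, a growth factor receptor of dendritic precursors, fell from 19.9 to 22.5 CPM to 2.68 to 4.37 CPM (-2.69 ± 0.38). Ighm, the heavy chain of immunoglobulin M, fell from 111 to 131 CPM to 14.2 to 21 CPM (-2.73 ± 0.26), while the B-cell receptor partner Cd79a (0.62) did not pass.

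Vessel wall and stromal genes changed to different degrees. For endothelium, 6 of 15 were higher and 1 lower (median 0.44), against 27.7% and 21.8% of all genes. Cldn5, a tight junction protein, had 67.5, 65.5, 65.8 and 72.1 CPM in uninjured and 178, 256, 215 and 217 CPM in 5-day libraries (1.68 ± 0.16), and Pecam1 (1.72) and Cdh5 (1.88) rose alike. The barrier transporters Slc2a1 (-0.13) and Slco1a4 (-0.74) did not pass, and Slco1c1 was lower (-1.1). Under scaling by size factors or by total counts the endothelial calls became 4 higher and 3 lower, and without the 2-day libraries 7 and 4. In a list of angiogenic tip cells 7 of 11 were higher, but 3 under those scalings, and 8 with 2 lower without the 2-day libraries. The 2 largest increases there were Esm1 (1.09 to 3.73 against 8.79 to 16.3 CPM, 2.6 ± 0.29) and Angpt2, which loosens vessel walls (2.37 ± 0.19). Vegfa, the growth factor itself, was lower (-0.81). With size factors or total counts, 4671 or 4610 of all 19207 genes were higher. Under those scalings neither the endothelial nor the tip cell list stood clearly above all genes in its share of higher calls.

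Of 11 genes of pericytes and smooth muscle 5 were higher and 0 lower (median 0.9). Acta2, smooth muscle actin, had 23.2, 23.3, 14.4 and 12.4 CPM in uninjured and 447.8, 562.1, 555.0 and 442.2 CPM in 5-day libraries (4.77 ± 0.33), and Tagln, its companion in contractile cells, rose by 4.47. Rgs5 (0.9), Kcnj8 (0.73) and Abcc9 (0.38), which mark pericytes more narrowly, did not pass. Of 15 fibroblast genes 13 were higher (median 3.02), and their summed level went from 387.8 to 824.8 CPM to 6358 to 7377 CPM. Col1a1, the main collagen of scar, had 197, 208, 159 and 96.3 CPM in uninjured and 3287, 3849, 3236 and 3638 CPM in 5-day libraries (4.41 ± 0.41, edgeR adjusted p = 3e-10). Postn, periostin of activated fibroblasts, rose from 1.93 to 3.02 CPM to 68.6 to 116 CPM (5.31 ± 0.45). Slc6a13 (-0.22) and Dpt (-0.02), which resting meningeal fibroblasts carry, did not pass.

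Genes of the matrix rose as well, and Col1a1, Col1a2 and Col3a1 belong to both the fibroblast and the collagen list. Which cells made these transcripts was not tested. All 18 collagen genes were higher (median 3.41), from Col15a1 (2.11) to Col5a1 (4.72). Those of basement membrane, Col4a1 (3.8) and Col4a2 (3.4), lay within that range. Of 15 genes of laminins and basement membrane 12 were higher and 1 lower (median 1.39), with Hspg2, perlecan, at 23.9 to 40.1 and 146.3 to 231 CPM (2.61 ± 0.26). Of 15 genes of chondroitin sulfate proteoglycans, tenascins and related proteins, 7 were higher and 2 lower (median 0.59). Tnc, tenascin C, had 3.64, 3.87, 3.61 and 3.54 CPM in uninjured and 113.8, 166.7, 153.4 and 124.4 CPM in 5-day libraries (5.25 ± 0.3), and Ncan, neurocan, rose by 2.71 and Vcan, versican, by 2.65. Hapln1 (-3.4) and Hapln4 (-3.16), linkers of the perineuronal net around neurons, fell, and Acan (-0.85), the core of that net, did not pass.

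Most genes of matrix breakdown and its control rose. Of 24 proteases and inhibitors 19 were higher and 1 lower (median 2.26). Mmp12, the macrophage elastase, had 0.323, 0.047, 0.0184 and 0.0182 CPM in uninjured and 23.2, 20.7, 22.8 and 37.6 CPM in 5-day libraries (7.99 ± 0.53). Mmp10, a stromelysin, was at 0 in 3 uninjured libraries and 0.0729 CPM in the fourth, and at 6.34 to 11.6 CPM at 5 days. Mmp14, a membrane protease that activates others, rose from 31.2 to 42.8 CPM to 535 to 680 CPM (3.94 ± 0.19). An inhibitor rose too, as Timp1, which blocks such proteases, went from 3.08 ± 0.628 to 426 ± 107 CPM (7.11 ± 0.33). Mmp9 (-0.06) did not pass.

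For Schwann cells, which wrap peripheral nerve roots, 3 of 8 genes were lower and 2 higher (median -0.18), against 21.8% and 27.7% of all genes. Leaving out single libraries gave 1 to 3 lower and 1 to 2 higher. Drp2, a scaffold gene of myelinating Schwann cells, had 57.3, 78.5, 56.6 and 56.1 CPM in uninjured and 26.4, 27.1, 22.8 and 48.1 CPM in 5-day libraries (-1 ± 0.2). Replicate 4 at 5 days was the highest of its group and still below every uninjured library. Egfl8, an EGF-like domain gene of Schwann cells, was higher (1.58).

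Genes of cell division rose without exception. All 34 were higher (median 4.49), and their summed level went from 150.3 ± 4.64 CPM (SD, n = 4) to 1371 to 1670 CPM. Mki67, a chromatin protein of dividing cells (gene ID 17345, chr7:135689784-135716450), had 1.43, 1.97, 1.06 and 0.848 CPM in uninjured and 95, 115, 122 and 94 CPM in 5-day libraries (6.32 ± 0.24, edgeR adjusted p = 4.8e-18). Ccnb2, a cyclin of entry into mitosis, rose by 6.35, Top2a, which untangles DNA, by 6.22, and Cdk1, the mitotic kinase, by 5.62. Genes of DNA replication, such as Pcna (1.49) and Mcm4 (1.36), rose less on the log2 scale from higher starting levels (Pcna 36.2 ± 1.47 CPM and Mki67 1.33 ± 0.49 CPM, each a level of its own gene and not per length). Which cells divided cannot be read from bulk RNA.

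The promoters of these genes were searched for CHR, written TTTGAA, and the CCAAT box, both known from genes switched on late in the cell cycle. RefSeq windows were at hand for 29 of the 34 genes. TTTGAA lay on either strand in 14 of 30 windows (46.7%) against 17.9% of all windows, and CCAAT in 25 of 30 (83.3%) against 37.4%. AGGAAGT, the motif of the myeloid search, lay in 13.3%. Shown are the 100 bases before the start of 4 members that hold both elements there, with CHR and CCAAT in capitals on whichever strand they lie (RefSeq, GRCm38.p6, 5′ to 3′ on the gene's strand). They are Top2a (chr11:99024190-99024289, minus), Cdk1 (chr10:69352913-69353012, minus), Cdc20 (chr4:118437344-118437443, minus) and Kif11 (chr19:37376282-37376381, plus), which rose by 6.22, 5.62, 4.9 and 3.97 on the log2 scale.
Top2a: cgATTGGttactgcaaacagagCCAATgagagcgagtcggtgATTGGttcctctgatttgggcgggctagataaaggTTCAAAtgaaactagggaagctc
Cdk1: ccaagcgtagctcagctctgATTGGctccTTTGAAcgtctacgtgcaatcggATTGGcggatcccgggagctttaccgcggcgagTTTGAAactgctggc
Cdc20: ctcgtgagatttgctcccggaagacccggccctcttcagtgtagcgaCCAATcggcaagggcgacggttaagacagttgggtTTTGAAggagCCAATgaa
Kif11: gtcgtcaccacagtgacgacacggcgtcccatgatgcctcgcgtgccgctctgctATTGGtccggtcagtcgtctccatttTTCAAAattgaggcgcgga

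Sterol synthesis and lipid clearance went opposite ways. Of 23 genes of cholesterol synthesis and its control 18 were lower and 1 higher (median -0.9). Hmgcs1, an early enzyme of the path, had 323.9, 347.4, 317.6 and 286.4 CPM in uninjured and 112, 87.3, 103 and 117 CPM in 5-day libraries, so its mean was 3.04-fold lower (-1.6 ± 0.19, edgeR adjusted p = 2.5e-08). Idi1, which acts further along the path, fell by 2.58 on the log2 scale. Ebp (0.78), a sterol isomerase, was the exception. Of 19 genes of lipid uptake, storage and efflux 16 were higher and 0 lower (median 3.46). Gpnmb, a glycoprotein of lipid-loaded phagocytes, had 7.04, 5.64, 7.16 and 5.98 CPM in uninjured and 1330, 1199, 1057 and 1136 CPM in 5-day libraries (7.51 ± 0.43). The scavenger receptors Msr1 (7.21) and Cd36 (6.37), the lipid droplet coat Plin2 (5.42), the lipid-sensing receptor Trem2 (4.75) and the cholesterol exporter Abca1 (3.09) rose with it. Apoe, the main carrier of lipid in the nervous system, was 11-fold higher at a mean of 13597 ± 874 CPM, while Abcg1 (0.27), another exporter, did not pass.

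The lysosome list rose nearly whole. Of 21 genes 20 were higher (median 3.03), and their summed level was 4712 to 5033 CPM in uninjured and 35653 to 43950 CPM in 5-day libraries. Ctsd, the acid protease cathepsin D, had 527, 513, 547 and 507 CPM in uninjured and 14034, 17782, 16643 and 13746 CPM in 5-day libraries (4.89 ± 0.24, edgeR adjusted p = 7.3e-16). Ctsb rose by 3.19, and Atp6v0d2, a proton pump subunit of macrophages and osteoclasts, by 5.74 from under 0.4 CPM. The general membrane protein Lamp1 changed less (0.9), and the sialidase Neu1 did not pass (0.22).

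Genes of oxidative stress and of the handling of haem and iron rose in 12 of 19 cases and fell in 3 (median 0.98). Hmox1, which breaks down haem (gene ID 15368, chr8:75093618-75100593), had 11.2, 10, 9.23 and 9.9 CPM in uninjured and 1603, 2480, 2457 and 1669 CPM in 5-day libraries (7.67 ± 0.26, edgeR adjusted p = 1.4e-18). It was the largest change of the list. Ftl1, the light chain of the iron store ferritin, went from 205.0 to 257.3 CPM to 5202 to 8074 CPM (4.82 ± 0.44), whereas Fth1, the heavy chain, had 11815 to 13023 and 13662 to 18053 CPM (0.29 ± 0.27, edgeR adjusted p = 0.36). Per kilobase of exon, Fth1 stood at 8281 CPM against 234 CPM for Ftl1 in uninjured cord, and at 10139 ± 1290 against 6636 ± 1242 at 5 days. Ferritin genes have processed copies in the genome whose reads may be counted apart. Hp, which binds free haemoglobin (3.8), and the iron exporter Slc40a1 (1.77) were higher, and Tfrc, the receptor for iron uptake, was lower (-1.02).

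Glycolytic genes as a list did not stand apart from all genes. Of 20, 6 were higher and 5 lower (median -0.05), against 27.7% and 21.8% of all genes, and the summed level was 6440 to 7858 and 6464 to 7403 CPM. Ldha, the lactate dehydrogenase chain of active glycolysis, rose from 85 ± 9.92 to 535 ± 50.4 CPM (2.65 ± 0.14), and Ldhb, the other chain, fell from 554 ± 74.3 to 160 ± 5.94 CPM (-1.8 ± 0.25). Hexokinases Hk3, found in leukocytes (4.63), and Hk2 (3.24) rose while Hk1, found in neurons and most cells, fell (-0.81). Slc16a3, a lactate exporter, rose from 3.4 to 4.19 CPM to 85.6 to 116 CPM (4.76 ± 0.15), and the neuronal glucose transporter Slc2a3 fell by 1.3. Scaling by size factors or by total counts moved the lower calls to 8 or 7.

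**Figure D3:**
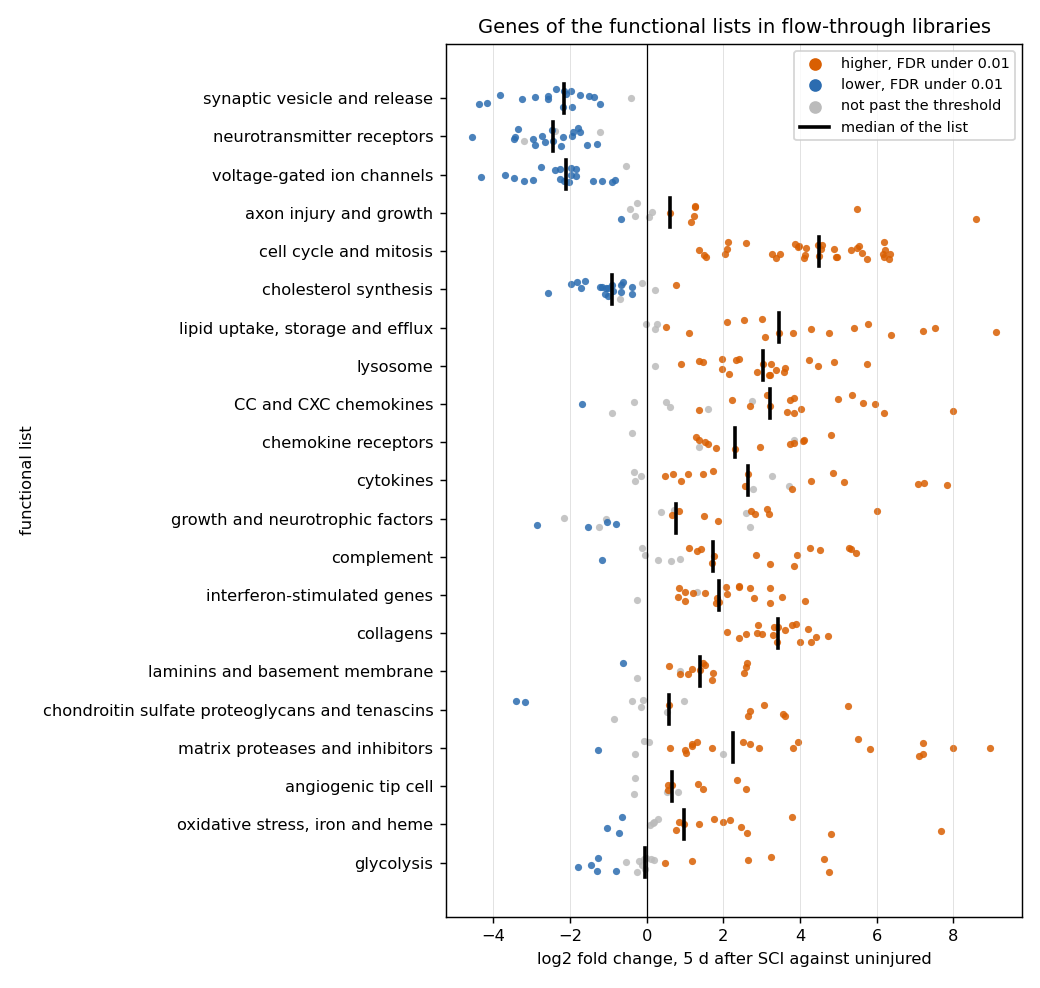
Log2 fold change (5 days against uninjured flow-through) of each tested gene of the functional lists; each point is 1 gene, coloured by its call, and the bar is the median of the list. The cell cycle list has its median at 4.49 with all 34 genes higher, and the receptor list at -2.43 with 18 of 21 lower.

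Signals to leukocytes and their receptors mostly rose. Of 23 chemokines 16 were higher and 1 lower (median 3.21). Ccl3 and Ccl4, which attract leukocytes, rose by 5.97 and 6.19, with Ccl3 at 0.415 to 0.629 CPM in uninjured and 25.7 to 35.6 CPM in 5-day libraries. Ccl2, the ligand of Ccr2, rose by 5.36 to 25.8 ± 2.73 CPM. Cx3cl1, the fractalkine that neurons display to microglia, had 234, 238, 276 and 274 CPM in uninjured and 78.8, 72.3, 80.8 and 86.6 CPM in 5-day libraries, and was the member that fell (-1.68 ± 0.11). Cxcl12 (0.5) did not pass, while its receptor Cxcr4 rose from 1.79 to 2.5 CPM to 30.9 to 42.3 CPM (4.1 ± 0.28). Of 15 chemokine receptors 12 were higher and 0 lower (median 2.3), including Ccr1 (4.07).

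Of 21 cytokines 15 were higher and 0 lower (median 2.65). Il1rn, which blocks interleukin-1 signalling, rose by 7.24 to 15.8 to 20.3 CPM, from 0.0547 to 0.215 CPM. Tnf was at or below 0.0627 CPM in uninjured cord and at 2.83 to 4.37 CPM at 5 days (7.08 ± 0.52). Osm, oncostatin M, rose from 0.0898 to 0.277 CPM to 5.91 to 6.69 CPM (5.15 ± 0.29). Tgfb1, which drives fibrosis, was 13.8-fold higher at 260 ± 27.1 CPM. Il1b varied more than these at 5 days, with 1.07, 2.28, 4.29 and 6.83 CPM (4.3 ± 0.67). Il6 (3.27) and Il10 (3.71) did not pass, and Ifnb1 and Il12b were too low to test.

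Of 20 growth factors 9 were higher and 4 lower (median 0.78). Spp1, osteopontin, had 144, 143, 155 and 161 CPM in uninjured and 9942, 10388, 9631 and 8826 CPM in 5-day libraries (6.01 ± 0.22, edgeR adjusted p = 4.1e-18), and made up most of the list's sum. Igf1 (3.14), Gdnf (2.82) and Hgf (2.72) were also higher. Those lower were Fgf9 (-2.87), Bdnf (-1.54), Fgf1 (-1.02) and Vegfa (-0.81), and Ntf3 (-2.15) did not pass. The trophic factors thus parted, with Gdnf up and Bdnf and Fgf9 down.

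Of 20 complement genes 14 were higher and 1 lower (median 1.73). Beside the C1q chains, the receptors C3ar1 (2.73 to 3.43 against 121 to 161 CPM, 5.46 ± 0.2) and C5ar1 (5.27) and the component C4b (2.86) rose. C3, on which the cascade converges, overlapped at 38.7 to 55.2 and 39.1 to 70.9 CPM (0.29 ± 0.31, edgeR adjusted p = 0.43). Of 21 interferon-stimulated genes 19 were higher and 0 lower (median 1.89). Bst2, tetherin, had 10.3, 13.9, 8.29 and 7.63 CPM in uninjured and 83.2, 140, 130 and 115 CPM in 5-day libraries (3.54 ± 0.23). 5-day replicate 1 was the lowest of its group for Bst2, Isg15, Irf7, Zbp1 and Ifitm3, yet stood above all uninjured libraries for each. Neither Ifnb1 nor Ifng (-0.29), which encode interferons, was called.

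The libraries labelled 2 days and those at 14 days give neighbouring values. Against the 2-day libraries, 4495 genes were higher at 5 days (23.4%) and 3501 lower (18.2%), or 1833 and 2333 with those groups fitted alone. The 2-day libraries held less depth (40710428 to 75175387 counts) and levels out of step within single complexes, such as C1qb at 67.4 ± 70 and C1qa at 4866 ± 1203 CPM, with Fth1 at 1970 ± 1045 CPM. Neuronal genes were higher at 5 than at 2 days in 10 of 14 cases and oligodendrocyte genes in 12 of 18, and 0 of either list were lower. With the pair of groups fitted alone these were 8 and 7. Of 16 macrophage genes 1 was higher and 7 lower, or 1 and 8 in the pair alone. Ccr2 stood at 20.8 ± 6.99 CPM in the libraries labelled 2 days and 4.21 ± 1.51 CPM at 5 days, while Arg1 was lower at 2 days (95.6 ± 44.7 CPM, edgeR adjusted p = 3.6e-05, and 0.0077 in the pair alone). Cell cycle genes were higher in 9 and lower in 5 of 34 cases, or 4 and 4 in the pair alone, with summed levels of 1219 to 1628 and 1371 to 1670 CPM.

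From 5 to 14 days 813 genes rose (4.23%) and 1292 fell (6.73%), and 1621 and 2144 without the 2-day libraries in the fit. Cell division receded, with 33 of 34 genes lower at 14 days and 0 higher (median -2.65, and 34 lower without the 2-day libraries), and Mki67 at 15.7 ± 1.83 CPM. Arg1 returned to 3.64 ± 0.411 CPM (-6.25), Hmox1 to 112 ± 8.87 CPM (-4.2), Acta2 to 42.9 ± 6.96 CPM (-3.55), Spp1 to 1343 ± 172 CPM (-2.85) and Tnc to 26.3 ± 3 CPM (-2.41), all called in edgeR's test with and without the 2-day libraries, as were the next. Other genes still rose, as Apoe reached 52658 ± 2726 CPM (1.95), Apoc1 240 ± 52 CPM (2.71), C3 290 ± 68 CPM (2.43) and Itgax 46.2 ± 4.21 CPM (2.62). None of the 14 neuronal genes was called between these times, and 4 of 18 oligodendrocyte genes were higher at 14 days. Without the 2-day libraries the neuronal count was still 0 and the oligodendrocyte one 8 higher with 1 lower. Of 18 collagens 2 were higher and 1 lower (3 and 4 without those libraries), and of 21 lysosome genes 3 were higher and 0 lower (4 and 2).

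**Figure D4:**
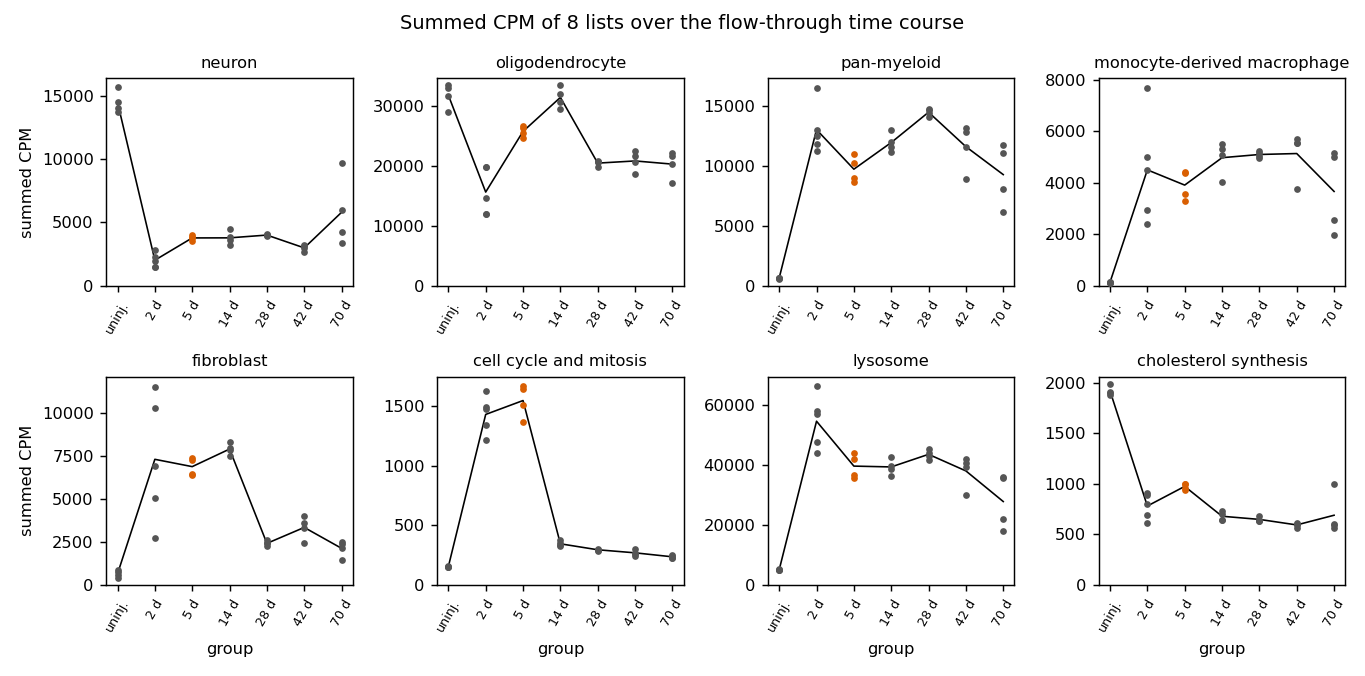
Summed CPM of 8 lists in each flow-through library from uninjured cord to 70 days; points are libraries (5 days in orange), the line joins the group means and the vertical axes start at 0. The cell cycle list lies at 1371 to 1670 CPM at 5 days and at 323.3 to 370.5 CPM at 14 days. The 2-day libraries are those whose Xist and Ddx3y counts went against their labelled sex.

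A separate set of 4 male flow-through libraries at 5 days (97883838 to 112493494 counts) was set against the 4 libraries of the time course. Of 17961 genes, 4 were higher in males (0.0223%), the Y-linked Eif2s3y, Ddx3y, Kdm5d and Uty, and 1 was lower (0.00557%), Xist. At an unadjusted p under 0.05 there were 677 genes, and DESeq2 called 4 higher and 3 lower. No gene of the 41 lists was called in either direction. No uninjured male flow-through of this line was analysed here, so the change with injury in males was not tested.

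Astrocyte and flow-through libraries allowed a test of whether a gene changed differently in the pulled-down and the remaining RNA. By the methods both kinds come from the same mice, though no label pairs them. The main fit used group means and did not pair them, and p-values given here are from that fit. In astrocyte libraries 5662 of 18613 genes were higher at 5 days (30.4%) and 5253 lower (28.2%). The change was more positive in astrocyte libraries for 4366 genes (23.5%) and more negative for 2739 (14.7%). This split moved with the scaling, to 3525 and 3373 with size factors and to 4774 and 2300 with total counts, so the counts of the lists below are given under each. Astrocyte genes changed more negatively in astrocyte libraries in 12 of 13 cases (12 with size factors, 10 with total counts and 13 with the animal as a block), with a median change of -1.92 there and -0.06 in the flow-through. Slc1a2, the glutamate transporter of astrocytes, fell by 2.76 in astrocyte libraries and by 0.59 in the flow-through (difference -2.03, edgeR adjusted p = 3.4e-07). Aldh1l1 moved in opposite directions, from 541 to 314.3 CPM in astrocyte and from 15 to 39.7 CPM in flow-through libraries.

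Myeloid genes also changed more in the astrocyte libraries. All 16 shared myeloid genes had the more positive change there, under every scaling and with the animal as a block, with a median of 6.77 against 3.72. Cd68 went from 3.44 to 1146 CPM in astrocyte libraries (8.53), and C1qa from 12.7 to 1683 CPM (7.2). At 5 days Cd68 stood higher in the pulled-down RNA than in the flow-through (1146 against 864 CPM). Tyrobp, another of the 16, ended at nearly the same level in both (766 and 769 CPM). Both genes had started lower in the pulled-down RNA. End levels of the other shared myeloid genes are not compared here. For MHC class II the kinds of library differed more, as Cd74 went from 37.1 to 560 CPM in astrocyte libraries and from 85.7 to 80.9 CPM in the flow-through (difference 4.28, edgeR adjusted p = 5.7e-05).

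Collagens and sterol genes leaned the other way. Of 18 collagens 12 changed more negatively in astrocyte libraries (12 with size factors, 9 with total counts and 15 with the animal as a block) and 0 more positively, with Col1a1 reaching 548 CPM there and 3502 CPM in the flow-through. Of 23 cholesterol genes 19 had the more negative change in astrocyte libraries (20 with size factors, 17 with total counts and 20 with the animal as a block), with a median of -2.09 there. Cell cycle genes had similar medians of 4.14 and 4.49, with 4 of 34 more positive and 6 more negative (3 and 8 with size factors, 5 and 6 with total counts and 5 and 6 with the animal as a block). Brevican (Bcan) fell by 3.49 in astrocyte libraries, from 2770 to 223 CPM, while in the flow-through it stood at 140 ± 16.8 and 211 ± 33 CPM, a rise whose call was lost under other scalings and without 5-day replicate 1 or uninjured replicate 1 or 2. Stmn2, a neuronal microtubule regulator, rose in astrocyte libraries from 32.2 to 242.2 CPM (3.06) and fell in the flow-through from 636 to 273 CPM (-1.22).

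**Figure D5:**
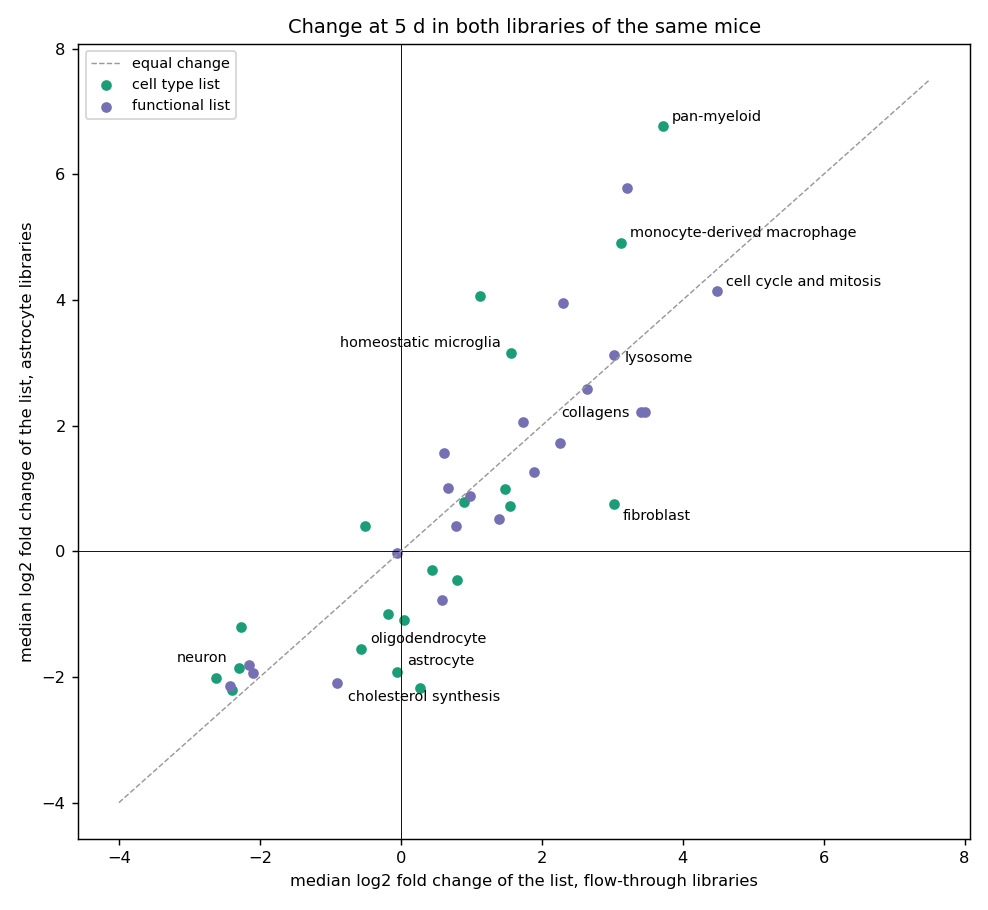
Median log2 change at 5 days of each list in astrocyte libraries (vertical axis) against that in flow-through libraries (horizontal axis); each point is 1 list and the diagonal marks equal change. The pan-myeloid list lies above it at 6.77 and 3.72, the astrocyte list below it at -1.92 and -0.06, and the neuron list above it at -1.85 and -2.3.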

How the data were processed

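Per the labels and methods, poly-A libraries from spinal cord were sequenced as read pairs. The authors cleaned reads with Trimmomatic, used HISAT2 for alignment to mm10, and obtained counts from featureCounts, all in Galaxy. The deposited values are raw counts, 1 file per library, for 27179 genes by Entrez ID, and 25275 of these were named from RefSeq (GRCm38.p6). Multimapping reads and strand follow the authors' default settings, so near-identical and overlapping genes are uncertain.

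Counts of 29 flow-through libraries in 7 groups of the time course were filtered (filterByExpr), scaled by TMM and fitted with edgeR 4.0.16 (R 4.3.3, quasi-likelihood, robust). Benjamini-Hochberg adjustment ran over all genes, with calls at an FDR under 0.01. Males were fitted apart with the 5-day libraries, and the comparison with astrocyte libraries used 16 libraries. On simulated counts for 5 days against uninjured (19207 genes), 40% of genes changed by a log2 fold of 1 and 71% of those changed by 2 were recovered. The simulation changed 100 genes at each size, whereas 9518 genes were called in the data. These shares therefore do not give the recovery of the real test. CPM use TMM-scaled totals, for flow-through libraries within the time course and for astrocyte libraries with all 45 libraries scaled together. Levels of both kinds set side by side are therefore on slightly different scales. Apoc2 in the 5-day flow-through, for instance, had a mean of 101.3 CPM on the former scale and 94.84 CPM on the latter. Errors of log2 changes are standard errors, and those of levels are SD. Libraries of a group were taken as separate mice, as the methods describe.

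Gene lists came from general knowledge, and the members and lists were chosen with earlier results of these data known. Values per library are given by rule, for the 12 rising and 12 falling genes of largest change with groups that do not overlap and a mean of at least 20 CPM in the higher group, and for up to 2 genes of largest change and 2 of highest level in each list. Other list genes are named by role. Values by library of Gal, Npy, P2ry12, Ccr2, Hba-a1, Tnf, Il1b and C3 were added after they were seen. Some genes that these rules name are not reported here. Alternatives are given in the closing section.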

Additional observations from a re-analysis of the deposited data

Results flagged for a closer look

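Among 82 sums of lists within a group of 4 libraries, 4 had 1 library far from the other three by Dixon's test, and among 296 groups of single genes 10 had, where chance gives about 1 in 20. The excitatory interneuron sum was 302.7 CPM in uninjured replicate 2 (others 333.2 to 338.8). The astrocyte sum was 6128.8 CPM in 5-day replicate 4 (4880.9 to 4897.3), and the homeostatic microglia sum 1470.3 CPM in 5-day replicate 2 (1267.1 to 1300.3). The cytokine sum was 468.8 CPM in uninjured replicate 1 (417 to 425.5).

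Single genes in uninjured libraries were Drp2 at 78.45 CPM in replicate 2, Glra1 at 7.409, Mmp12 at 0.3233 and Rsph1 at 8.873 CPM in replicate 1, and Mmp10 at 0.07294 CPM in replicate 4 with 0 in the others. At 5 days they were Drp2 at 48.14 and Mmp12 at 37.63 CPM in replicate 4, Lilr4b at 52.68 CPM in replicate 2, S100b at 1113.5 CPM in replicate 3 and Ifitm3 at 255.2 CPM in replicate 1.

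Of 624 list genes, 24 were called in opposite directions in astrocyte and flow-through libraries, with a difference past the threshold as well. Values are written as the astrocyte minus the flow-through log2 change. More negative in astrocyte libraries were Aldh1l1 (-1.9) and Sox9 (-2.07) of the astrocyte list, Bcan (-3.94) of the proteoglycan list and Mfsd2a (-1.84) of the endothelial list. So were the matrix genes Sparc (-2.86), Col15a1 (-2.8), Fbln1 (-2.7), Timp3 (-2.05) and Timp4 (-2.57). The signals Cxcl14 (-2.95), Il33 (-1.85), Tgfb2 (-1.97) and Pgf (-1.53), and Pdgfrb (-2.48), Sox10 (-1.47) and Eno1 (-1.43), were also among them. Those more positive were the neuronal genes Stmn2 (4.42), Chodl (3.81), Ret (2.89), Cacna1a (1.54) and Thy1 (1.39), and Flrt3 (2.39), Flt3 (3.39) and Ccdc153 (2.6). The flow-through call was lost under 12 of 19 alternatives for Mfsd2a, 7 for Pgf, 6 for Bcan, 5 for Flrt3 and 1 each for Tgfb2 and Ccdc153, and under none for the other 18 of the 24.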

How the results depend on the processing

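For 5 days against uninjured, both counts stayed within 1.5 times the main counts under every alternative, and leaving out 1 library gave 4729 to 5104 higher and 3705 to 4061 lower. Against 2 days, fitting the pair of groups alone gave 1833 higher and 2333 lower, and leaving out 1 library 3992 to 4797 and 3029 to 3648. For 14 against 5 days, the pair of groups alone gave 2085 and 2517, the fit without the 2-day libraries (added after seeing the data) 1621 and 2144, an FDR under 0.05 1443 and 1972, and leaving out 1 library 573 to 723 and 893 to 1176. The cause was not tested. In males, lower calls became 3 with DESeq2 and 2 at an FDR under 0.05, with 4 and 1 without any 1 library. The comparison of both libraries gave 4025 to 4296 and 2491 to 2714 without 1 library.

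The replicate number as a block gave 5309 and 4199 against uninjured, 4379 and 3306 against 2 days, 796 and 1255 for 14 against 5 days, 4 and 1 in males. Deviations of same-numbered libraries correlated at -0.049 to -0.24, so the numbers gave no pairing. With the animal as a block the comparison of both libraries gave 4999 and 3252. Among lists it moved, it gave 12 lysosome genes more positive in astrocyte libraries (from 8), 9 of vesicle release (from 5), 10 channels (from 6) and 4 Schwann cell genes more negative (from 0). Chemokines with the more positive change went from 8 to 12, and oligodendrocyte genes with the more negative one from 11 to 7.

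Of 480 called list or leading genes, 46 lost their call under at least 1 alternative, and of 152 not called 57 passed under at least 1. List medians moved by more than 1 SD in 58 of 492 cases. A change that was not called is not shown to be absent.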
